A study of Mus musculus with 3 samples.

Results

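The genes described here are 10 members of the circadian clock and of its direct output: the output genes Usp2, Nfil3, Dbp and Tef, the Period genes Per1, Per2 and Per3, the REV-ERB genes Nr1d1 and Nr1d2, and Arntl. They are 10 of 55364 nuclear-encoded genes in the count tables, and all 10 were found by symbol. The set was chosen by knowledge of the clock together with measured values, since Usp2 and Nfil3 had already been seen to differ between the libraries. Their levels and ratios below are therefore a description, with no test.

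The material is adult heart cells of mice given tamoxifen, sequenced well by well on day 1, day 2 and day 3, and each day is a single library. In the series title stands the Myh6-MCM driver, a tamoxifen-inducible Cre under the cardiomyocyte myosin promoter, with the allele Ino80fl/fl, while the genotype labels read D1_INO80_OE on day 1 and D2_INO80_OE on day 2 and the design text calls the manipulation Ino80 induction. INO80 is a chromatin remodelling complex and Ino80 its ATPase. Day 3 has the labels D3_INO80_OE and D3_Ctrl together and its wells carry no genotype in the files, so day 3 wells are also given by their own Ino80 level. The labels give no time of day for any harvest, no number of animals and no age, so the time of harvest cannot be told apart from the day, the library or the animals.

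In background terms, the clock is a feedback loop found in nearly every mammalian cell. CLOCK and BMAL1, the product of Arntl, bind E-boxes and activate the Per, Cry and Nr1d genes. PER and CRY proteins then repress CLOCK and BMAL1, and the REV-ERB proteins encoded by Nr1d1 and Nr1d2 repress Arntl and Nfil3. The PAR bZIP factors DBP and TEF activate genes through D-boxes, which NFIL3 represses. In mouse tissues Arntl and Nfil3 peak at nearly the opposite time of day from Nr1d1, Dbp and the Per genes. Per1 and Per2 also respond acutely to glucocorticoids and to signals that act through CREB.

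Levels are counts per 1000000 nuclear-encoded counts (CPM), summed over the wells of the cardiomyocyte compartment. That compartment holds the wells outside clusters with markers of a non-cardiomyocyte type, and it had 582, 630 and 882 wells on days 1, 2 and 3. Of the day 3 wells, 399 had Ino80 at 1000 CPM or above (Ino80-high wells), 437 had less than 100 CPM (Ino80-low wells) and 46 lay between. Ino80 itself stood at 2851, 4941 and 1191 CPM on days 1, 2 and 3, and the split fixes its 3034 CPM in Ino80-high wells and 18.1 CPM in Ino80-low wells. The libraries held between 452070922 and 487461107 counts, with a median of 316120 to 360693 counts per well. All 9 ventricular cardiomyocyte markers were above 10 CPM in every sum, but the compartment is defined by exclusion and its wells fell into different clusters: cluster 2 held 523 of 582 wells on day 1, cluster 5 held 593 of 630 on day 2, and clusters 3 and 12 held 458 and 411 of 882 on day 3. Between 247 and 278 well barcodes occur in both libraries of a pair. Mitochondrial genes took a median of 40.7%, 43.6% and 21.3% of the counts on days 1, 2 and 3, with 19.7% in Ino80-high and 22.2% in Ino80-low wells.

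Upstream windows of 4 genes are shown, with or without a match to the elements through which the loop acts. They are the 250 bases before a RefSeq start on GRCm38.p6 (mm10). Capitals mark an E-box (CACGTG) or a D-box (TTATGTAA or TTACGTAA), searched on both strands. Per1 and Tef, which stood on opposite sides of the Ino80 split below, each had an E-box, and Per3 had D-boxes. Usp2, the highest of the 10 genes per exon length on day 1, had no match in the window shown.
Per1: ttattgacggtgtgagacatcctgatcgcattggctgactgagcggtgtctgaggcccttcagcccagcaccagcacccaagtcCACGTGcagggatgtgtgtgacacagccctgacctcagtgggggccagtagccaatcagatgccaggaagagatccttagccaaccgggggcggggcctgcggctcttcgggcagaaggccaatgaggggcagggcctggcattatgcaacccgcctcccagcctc
Tef: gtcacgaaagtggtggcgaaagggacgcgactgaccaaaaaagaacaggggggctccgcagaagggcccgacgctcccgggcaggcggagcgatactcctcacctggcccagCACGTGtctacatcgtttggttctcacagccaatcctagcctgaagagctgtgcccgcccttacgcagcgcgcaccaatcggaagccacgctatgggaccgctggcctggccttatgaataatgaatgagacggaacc
Per3: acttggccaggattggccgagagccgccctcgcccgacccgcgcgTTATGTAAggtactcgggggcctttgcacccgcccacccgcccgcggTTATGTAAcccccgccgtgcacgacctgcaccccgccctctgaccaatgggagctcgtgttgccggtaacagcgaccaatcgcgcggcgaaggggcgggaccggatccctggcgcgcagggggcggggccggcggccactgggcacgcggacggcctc
Usp2: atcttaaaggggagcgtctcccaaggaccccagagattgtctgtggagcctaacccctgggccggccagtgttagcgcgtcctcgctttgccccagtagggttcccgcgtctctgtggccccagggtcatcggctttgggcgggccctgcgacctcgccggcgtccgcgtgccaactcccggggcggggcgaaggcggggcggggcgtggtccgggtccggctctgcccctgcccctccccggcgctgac
The Per1 window, before the first of its RefSeq starts in genome order, lies at chr11:69098699-69098948 on the plus strand, with its E-box at positions −166 to −161 from the start. The Tef window, before the second of its RefSeq starts in genome order, lies at chr15:81811164-81811413 on the plus strand, with the E-box at −138 to −133. The Per3 window lies at chr4:151044666-151044915 on the minus strand, with D-boxes at −205 to −198 and −158 to −151. The Usp2 window lies at chr9:44084670-44084919 on the plus strand, inside the longer GENCODE gene. The bases just after this start were not found in a GENCODE transcript of Usp2. The start of the longer gene was not searched, so the lack of a match holds for this window alone.

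The RefSeq table held 12 windows for 9 of the 10 genes, and Per2 had no entry. An E-box stood in 3 of the 12 windows, those of the first Per1 start in genome order and of both Tef starts, against 6.02% of all 32851 windows. The window of the second Per1 start (chr11:69099902-69100151) had none. As for Usp2, the bases just after that start, and after the Nr1d1 start, were not found in a GENCODE transcript of the gene. A D-box stood in the Per3 window alone among the 12, against 0.932% of all windows. The core of the REV-ERB and ROR element (TAGGTCA or TGGGTCA, either strand) stood in the Nfil3 window, at −12 to −6, against 5.38% of all windows, and that match lies in the first exon that GENCODE gives Nfil3. The CREB element TGACGTCA stood in none of the 12 windows, against 1.55% of all. The E-box, the D-boxes and the core do not overlap one another where found. These matches describe letters in these windows and not binding.

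Usp2 and Nfil3 were lower in the day 3 library than in either earlier library, in both Ino80 ranges, while Nr1d1 was higher there. Dbp was near 0 everywhere. Usp2 encodes a deubiquitinating enzyme whose mRNA cycles in many tissues (ENSMUSG00000032010.15, chr9:44067021-44095627). It had 237, 213 and 67.8 CPM on days 1, 2 and 3, with 49.3 CPM in Ino80-high and 81.1 CPM in Ino80-low wells. Counting intervals (95%, exact Poisson) were narrow, such as 66.9 to 68.7 CPM on day 3, and those of day 1, day 2, the Ino80-high wells and the Ino80-low wells do not overlap. The day 3 level was 3.49-fold lower than on day 1 (log2 ratio −1.80, 95% counting interval −1.83 to −1.78) and 3.14-fold lower than on day 2 (−1.65, −1.68 to −1.63). Such intervals hold counting error alone. Any collapsing of duplicates is not given in the sources used here, so counted reads may be copies of the same molecule. Since each day is 1 library, every difference is between libraries.

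The lower Usp2 level on day 3 was spread over wells. The median well held 123, 114 and 16.3 CPM on days 1, 2 and 3, and no single well gave more than 2.44% of the counts of a library. With every well thinned to 30000 nuclear-encoded counts, 78.2%, 76.9% and 48.4% of wells had a Usp2 count (Clopper-Pearson 95% intervals 74.6 to 81.5, 73.4 to 80.1 and 45.0 to 51.8), against 91.9%, 91.6% and 72.8% before thinning. Thinning left out 13, 3 and 8 wells. Clopper-Pearson intervals treat wells as separate draws, whereas the wells of 1 library are not replicates of a day. In wells with 25 to 35% mitochondrial counts (136 on day 3 and 130 on day 2) the ratio of day 3 over day 2 was −0.69, which ends that call, while day 3 over day 1 (136 and 85 wells) was −1.71.

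**Figure D1:**
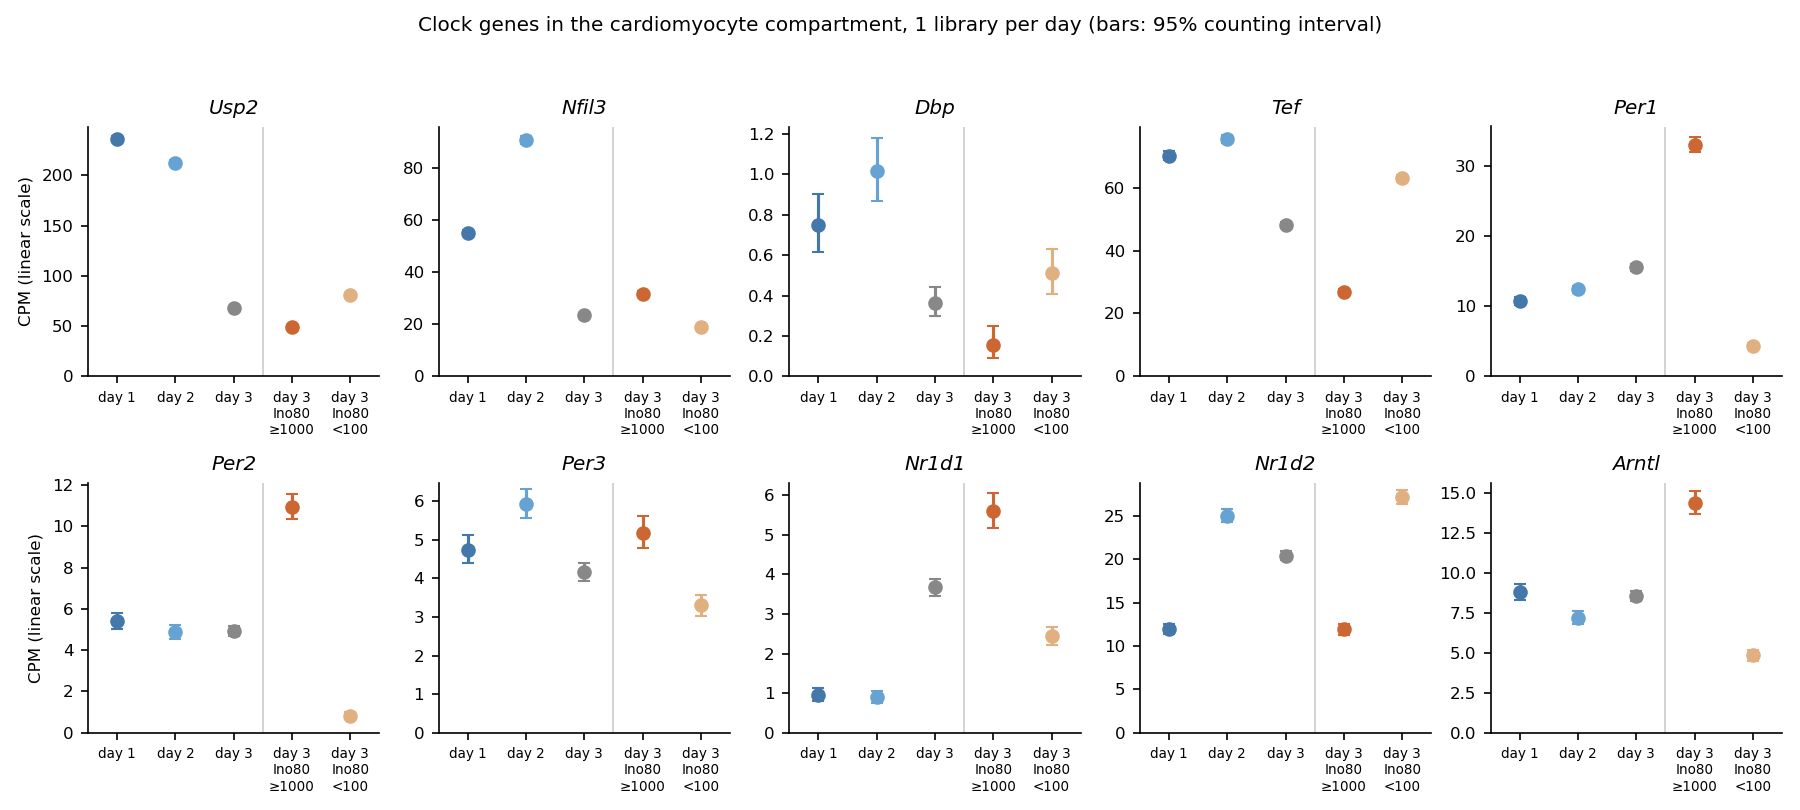
Level of each gene in CPM (vertical axis, linear, a scale of its own per panel) on days 1, 2 and 3 and, right of the grey line, in day 3 wells with Ino80 at 1000 CPM or above and below 100 CPM. Points are sums over compartment wells and bars are 95% counting intervals. Usp2 is at 237 and 213 CPM in the earlier libraries and at most 81.1 CPM in every day 3 sum, whereas Per1, Per2 and Arntl have their highest point in the Ino80-high wells and their lowest in the Ino80-low wells.

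Nfil3 encodes the D-box repressor NFIL3, also called E4BP4 (ENSMUSG00000056749.7, chr13:52967209-52981073). Its level was 55.1, 90.8 and 23.5 CPM on days 1, 2 and 3, with 31.8 CPM in Ino80-high and 19.1 CPM in Ino80-low wells. Day 2 was the high library and both day 3 ranges lay below day 1. The log2 ratio was 0.72 (0.68 to 0.76) for day 2 over day 1, −1.23 (−1.27 to −1.18) for day 3 over day 1 and −1.95 (−1.99 to −1.91) for day 3 over day 2. Nfil3 was patchier than Usp2, since the median well held 0, 6.23 and 0 CPM, and 26.4%, 36.2% and 16.3% of thinned wells had a count. The call against day 1 ended when mitochondrial counts were put into the total, with a log2 ratio of −0.85, and with all kept wells in place of the compartment (−0.91).

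Tef encodes a PAR bZIP activator (ENSMUSG00000022389.15, chr15:81802421-81826863). It had 70.2, 75.5 and 48.1 CPM on days 1, 2 and 3, with 26.7 CPM in Ino80-high and 62.9 CPM in Ino80-low wells. The Ino80-low wells lay close to the day 1 library and the Ino80-high wells lay well below both earlier libraries. Day 3 was within 2-fold of both, at −0.54 over day 1 and −0.65 over day 2, and both turned in wells with 25 to 35% mitochondrial counts, at 0.49 and 0.85. Ino80-high over Ino80-low wells gave −1.23 (−1.29 to −1.18), but −0.90 when every well had the same weight and 0.0211 in wells with 25 to 35% mitochondrial counts.

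Dbp encodes another PAR bZIP activator and is among the strongest cycling transcripts of many mouse tissues (ENSMUSG00000059824.12, chr7:45705088-45710203). It had 0.748, 1.01 and 0.365 CPM on days 1, 2 and 3, from 109, 165 and 109 counts, and 0.157 CPM in Ino80-high against 0.510 CPM in Ino80-low wells, from 18 and 87 counts. A count was seen in 1.72%, 2.54% and 2.61% of wells, and 1 well gave 62.4% of the day 1 counts. Its ratios therefore rest on a handful of wells: the value for day 3 over day 1 was −1.03, but −0.20 with the top well of each library left out. Exons of Sphk2 on the opposite strand cover 18.0% of the Dbp exon bases, the strand setting of the counting is not given in the sources used here, and Sphk2 itself stood at 6.41, 11.9 and 6.02 CPM. Dbp reads are uncertain for that reason.

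The Period genes encode the repressors of the loop, and their levels over all compartment wells were less than 2-fold apart between libraries, whereas those of Per1 and Per2 were far apart within day 3. The first of these does not hold in wells with 25 to 35% mitochondrial counts, where Per1 gave a log2 ratio of −1.44 for day 2 over day 1 (0.21 in all compartment wells) and −0.97 for day 3 over day 1 (0.53). There Per2 gave 1.58 for day 3 over day 1 (−0.14), and Per3 gave 1.47 for day 3 over day 1 (−0.19) and 1.54 for day 3 over day 2 (−0.51). Per1 (ENSMUSG00000020893.17, chr11:69095217-69109960) had 10.7, 12.4 and 15.5 CPM on days 1, 2 and 3. Within day 3 it had 33.0 CPM in Ino80-high wells (32.0 to 34.1) and 4.37 CPM in Ino80-low wells (4.063 to 4.696), which lie on both sides of the earlier libraries. The ratio of the Ino80 ranges was 7.56-fold, a log2 ratio of 2.92 (2.80 to 3.03), and 1.64 in the 43 Ino80-high and 82 Ino80-low wells with 25 to 35% mitochondrial counts. A count was seen in 24.3% of thinned Ino80-high wells (20.2 to 28.8) and in 6.45% of thinned Ino80-low wells (4.33 to 9.19), against 47.9% and 27.0% of wells before thinning.

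Per2 (ENSMUSG00000055866.9, chr1:91415982-91459324) had 5.41, 4.86 and 4.91 CPM on days 1, 2 and 3, and these intervals overlap. In Ino80-high wells it had 10.9 CPM (10.3 to 11.6), against 0.832 CPM (0.701 to 0.981) in Ino80-low wells. This is a 13.1-fold difference (log2 3.72, 3.47 to 3.98) from 1254 and 142 counts, and it was 4.08 with the top well of each range left out. Of thinned wells, 7.59% in the Ino80-high and 0.922% in the Ino80-low range had a count. The mean of both ranges is under 10 CPM, so Per2 is not among the measured genes counted below.

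Per3 (ENSMUSG00000028957.12, chr4:151003652-151044665) had 4.75, 5.93 and 4.16 CPM on days 1, 2 and 3, with 5.19 CPM in Ino80-high and 3.30 CPM in Ino80-low wells. A single Ino80-high well gave 52.1% of the counts of that range, and without the top wells the log2 ratio of 0.65 turned to −0.23. After thinning, 2.53% of Ino80-high and 5.07% of Ino80-low wells had a count, so level and share point opposite ways and no order is read from them.

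**Figure D2:**
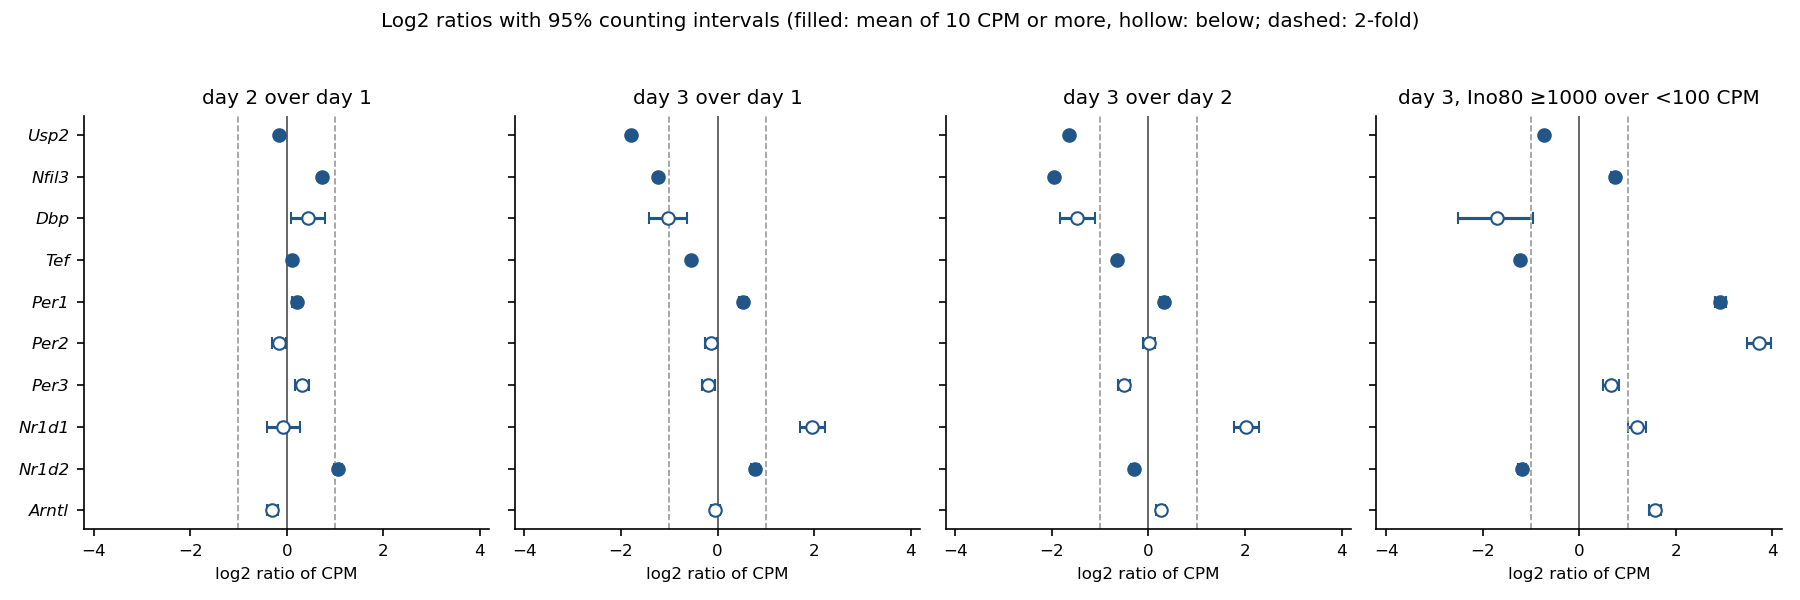
Log2 ratio of CPM (horizontal axis) for each gene in 4 comparisons, with 95% counting intervals as bars. Filled points have a mean of 10 CPM or more over both sums, hollow points less, and dashed lines mark 2-fold. Usp2 and Nfil3 lie left of the 2-fold line for day 3 over each earlier day, and Per1 and Per2 are the points farthest to the right, at 2.92 and 3.72, in the Ino80 comparison.

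The REV-ERB genes differed in direction within day 3. Nr1d1, which encodes REV-ERBα (ENSMUSG00000020889.11, chr11:98767932-98775333), had 0.947, 0.903 and 3.67 CPM on days 1, 2 and 3. The first pair of intervals overlap, and the day 3 level was 3.88-fold that of day 1 (log2 1.96, 1.70 to 2.22) and 4.06-fold that of day 2 (2.02, 1.77 to 2.28). Both Ino80 ranges lay above the earlier libraries, at 5.60 CPM in Ino80-high and 2.44 CPM in Ino80-low wells, a log2 ratio of 1.20 (1.02 to 1.38). Of thinned wells, 2.28%, 1.28% and 8.24% had a count on days 1, 2 and 3. Nr1d1 shares 8.55% of its exon bases with Thra on the opposite strand, which stood at 56.1, 38.8 and 38.2 CPM on days 1, 2 and 3 and at 20.3 CPM in Ino80-high against 47.7 CPM in Ino80-low wells. Thra was thus lower where Nr1d1 was higher in day 3 over day 1 and in the Ino80 comparison, and nearly level in day 3 over day 2. Reads of the pair in the shared exon bases cannot be told apart without strand.

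Nr1d2, which encodes REV-ERBβ (ENSMUSG00000021775.11, chr14:18204054-18239127), had 11.9, 25.01 and 20.4 CPM on days 1, 2 and 3. It had 11.9 CPM in Ino80-high wells, an interval that overlaps day 1, and 27.2 CPM in Ino80-low wells, above day 2. The log2 ratio was 1.07 (0.99 to 1.15) for day 2 over day 1 and −1.19 (−1.28 to −1.10) for Ino80-high over Ino80-low wells. Both lie close to 2-fold: the first was 0.93 with median-of-ratios size factors and 0.73 in thinned wells, and the second was −0.91 in thinned wells. Day 3 over day 1 was 0.77, but 1.14 with mitochondrial counts in the total and 1.80 in wells with 25 to 35% mitochondrial counts. After thinning, 10.9% of Ino80-high and 23.5% of Ino80-low wells had a count.

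Arntl, which encodes the activator BMAL1 (ENSMUSG00000055116.8, chr7:113207465-113314126), had 8.81, 7.18 and 8.56 CPM on days 1, 2 and 3, where the intervals of days 1 and 3 overlap. It had 14.4 CPM (13.7 to 15.1) in Ino80-high and 4.84 CPM (4.51 to 5.18) in Ino80-low wells, on both sides of every library. The log2 ratio was 1.57 (1.45 to 1.70), and 15.2% of thinned Ino80-high wells had a count, against 5.53% of thinned Ino80-low wells. Arntl stood on the same side of the Ino80 split as Per1, Per2 and Nr1d1. In mouse tissues Per1, Per2, Nr1d1 and Dbp peak at nearly the opposite time of day from Arntl. Dbp stood on the other side of the split at −1.70, as did Tef at −1.23 and Nr1d2 at −1.19. Within 2-fold, Nfil3 stood on the side of Arntl at 0.74 (0.67 to 0.81). Usp2, also within 2-fold, stood on the side of Dbp at −0.72 (−0.76 to −0.67). Arntl, Per2, Nr1d1 and Dbp had a mean under 10 CPM, and 23.2% of all measured genes were at least 2-fold higher in this comparison. Clock phase was not tested. Between days 3 and 1, Nfil3 at −1.23 and Nr1d1 at 1.96 stood on opposite sides, with Arntl at −0.04 and Per2 at −0.14. In wells with 25 to 35% mitochondrial counts Arntl was not level between days, at −1.83 for day 2 over day 1 (−0.30 in all compartment wells) and −1.80 for day 3 over day 1.

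**Figure D3:**
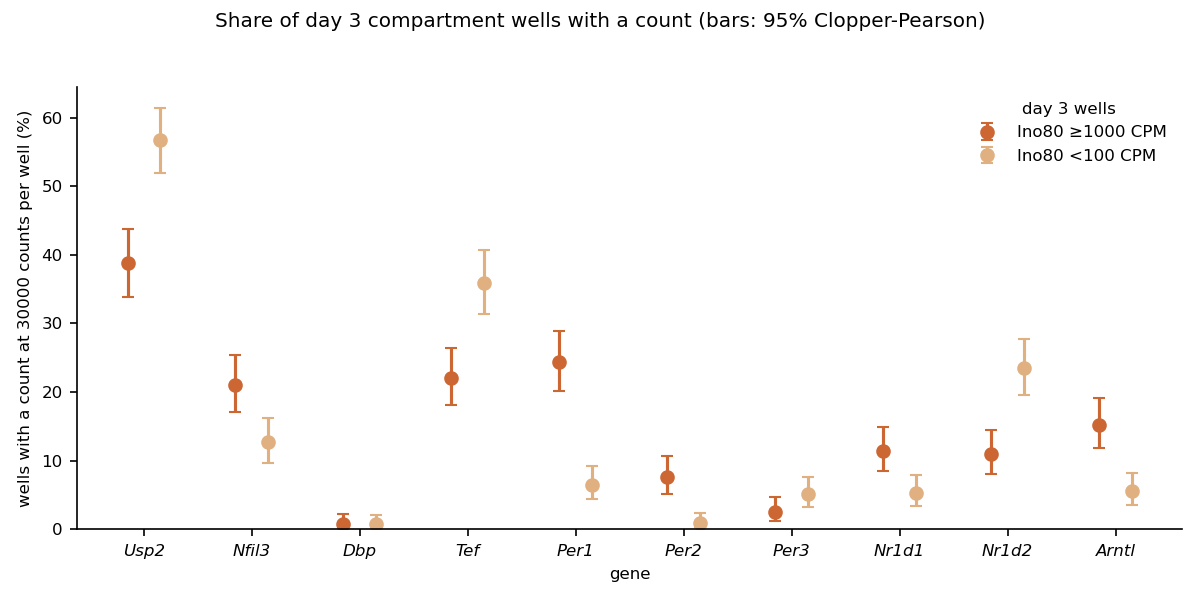
Percentage of day 3 compartment wells with at least 1 count of each gene after thinning every well to 30000 nuclear-encoded counts (vertical axis), for wells with Ino80 at 1000 CPM or above (dark, left of each pair) and below 100 CPM (light). Bars are 95% Clopper-Pearson intervals. Per1, Per2, Nr1d1 and Arntl have the higher share in the Ino80-high wells and Usp2, Tef and Nr1d2 in the Ino80-low wells, with intervals that do not overlap, as for Nfil3 at 21.0% and 12.7%, whereas Dbp and Per3 intervals overlap. The bars hold the sampling of wells within 1 library alone, and wells are not replicates of a condition. The share of all genes with intervals apart was not counted.

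Per kilobase of annotated exon, Usp2 and Nfil3 led in every sum. This scale compares genes only if reads cover whole transcripts, which was not tested. In CPM, without division by exon length, Tef lay above Nfil3 on day 1 (70.2 against 55.1) and on day 3 (48.1 against 23.5). On day 2 Tef lay below Nfil3 in CPM (75.5 against 90.8). Usp2 had 49.1, 44.2 and 14.1 CPM per kb on days 1, 2 and 3, and Nfil3 had 27.2, 44.8 and 11.6. Tef came after them in each library, at 8.92, 9.60 and 6.12 CPM per kb. Per1 reached 5.87 CPM per kb in Ino80-high wells, above Tef at 3.398, but stood at 0.776 in Ino80-low wells, below Tef at 7.995. Dbp was lowest on days 1 and 3, at 0.2498 and 0.122 CPM per kb, and Nr1d1 was lowest on day 2 at 0.294.

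Of the 10 genes, 5 (Usp2, Nfil3, Tef, Per1 and Nr1d2) had a mean of at least 10 CPM in each comparison and so count as measured. For day 2 over day 1, 1 of the 5 was at least 2-fold higher, where 4.44% of 6426 measured genes were, and 0 were lower, where 1.81% were. For day 3 over day 1, 0 were higher, where 4.83% of 6149 genes were, and 2 were lower, where 5.74% were. Nr1d2 joined the higher genes of that comparison under both mitochondrial alternatives given above. For day 3 over day 2, 0 were higher, where 3.03% of 6298 genes were, and 2 were lower, where 8.86% were. Since the set was chosen because Usp2 and Nfil3 differ, nothing is read from these counts, and the 3 comparisons share libraries. For Ino80-high over Ino80-low wells, 1 of 5 was higher, where 23.2% of 5988 genes were, and 2 were lower, where 11.5% were. The median log2 ratio of all measured genes was itself 0.13, −0.11, −0.24 and 0.26 in these comparisons in that order. With median-of-ratios size factors that median is 0 and the called genes split 174 higher to 175 lower, 370 to 258, 321 to 232 and 1020 to 980, in place of 285 to 116, 297 to 353, 191 to 558 and 1387 to 686. The members' directions held with those factors except for Tef in day 2 over day 1 (−0.03 in place of 0.11), and for Arntl in day 3 over day 1 (0.07 in place of −0.04). With mitochondrial counts in the total, day 3 over day 1 turned for Per2 (0.24), Per3 (0.18) and Arntl (0.33), and day 3 over day 2 turned for Nr1d2 (0.06 in place of −0.30).

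The Ino80 ranges differed in more than the clock. Ino80-high wells had a median total of 306900 counts, against 437537 in Ino80-low wells. Myh6, the main cardiac myosin heavy chain, stood at 4632 CPM in Ino80-high and 16166 CPM in Ino80-low wells, and the 9 ventricular markers summed to 75177 and 130843 CPM. The 8 macrophage markers summed to 186 CPM in Ino80-high against 32.0 CPM in Ino80-low wells, the 8 endothelial markers to 1078 against 489 CPM, the 5 erythroid markers to 602 against 195 CPM and the 8 atrial markers to 2454 against 1069 CPM. No defining marker of these lists was at 0 in either range, but not every marker followed its sum. The lowest erythroid marker was at 0.0436 CPM in Ino80-high wells, and none was under 0.246 CPM in Ino80-low wells. The lowest endothelial marker was at 7.75 CPM in Ino80-high wells, and none was under 9.29 CPM in Ino80-low wells. Csf1r alone gave 79.4 CPM of the macrophage sum in Ino80-high wells. The part of these differences in the clock values was not tested. Fewer cells of a type and less RNA per cell cannot be told apart in such sums. Across libraries, the atrial markers summed to 6762, 211 and 1606 CPM on days 1, 2 and 3, the T lymphocyte markers to 64.5, 20.1 and 6.54 CPM, and the erythroid markers to 37.5, 375 and 345 CPM. The 4 B lymphocyte markers summed to 0.501, 416 and 2.09 CPM, and Igkc, an immunoglobulin light chain gene, gave 415.9 CPM of the day 2 sum while the lowest of the 4 was at 0 there. Igkc and Igha also led cluster 5, which held most day 2 wells. The part of these transcripts in the clock values of the day 2 comparisons was not tested.

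The 46 wells between the Ino80 thresholds had 55.8 CPM of Usp2, 9.66 of Nfil3, 43.1 of Tef, 7.82 of Per1, 5.37 of Per2, 5.67 of Nr1d2 and 5.75 of Arntl. With thresholds of 2000 and 50 CPM the log2 ratio of Per1 was 2.85, that of Per2 3.91 and that of Arntl 1.71. With a single threshold of 500 CPM they were 2.82, 3.30 and 1.58.

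Of 20 other genes of the clock pathway, 11 were measured for day 2 over day 1, with 0 at least 2-fold higher and 0 lower, and a median log2 ratio of 0.24 beside 0.13 for all measured genes. For day 3 over day 1, 0 of 10 were higher and 0 lower (median −0.43 beside −0.11), and for day 3 over day 2, 0 of 10 were higher and 1 was lower (median −0.56 beside −0.24). That gene was Cry2, a repressor that pairs with PER, at 20.4 CPM on day 3 and 42.5 CPM on day 2. Of all measured genes, 4.44% were higher and 1.81% lower for day 2 over day 1. The shares were 4.83% and 5.74% for day 3 over day 1, and 3.03% and 8.86% for day 3 over day 2.

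Within day 3, 4 of 9 measured pathway genes were at least 2-fold higher in Ino80-high than in Ino80-low wells and 0 were lower (median 0.67 beside 0.26), where 23.2% and 11.5% of all measured genes were. Cry2 had 36.6 CPM in Ino80-high and 9.18 CPM in Ino80-low wells (log2 2.00). Csnk1e, a casein kinase that phosphorylates PER, had 47.7 and 16.6 CPM (1.52). Cipc, a CLOCK-interacting repressor, had 29.1 and 12.7 CPM (1.20), and Sfpq, an RNA-binding protein found in PER complexes, had 119 and 45.0 CPM (1.40). Clock itself had 26.2 and 21.6 CPM (0.28). Exons of Cry2 and Csnk1e overlap those of genes on the opposite strand by 4.67% and 4.05% of their bases, so their counts are uncertain without strand. Sfpq shares 4.55% of its exon bases with another gene on its own strand. With median-of-ratios size factors, which take 0.26 off each log2 ratio of this comparison, 3 of the 9 were called, Cipc no longer among them, and for day 3 over day 2 Cry2 was no longer called.

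Of 13 genes used as clock outputs in heart or across tissues, 11 were measured within day 3, with 3 higher and 5 lower in Ino80-high wells, where 23.2% and 11.5% of all measured genes were, and a median log2 ratio of 0.06 beside 0.26. Kcnip2, which encodes the KChIP2 subunit of a cardiac potassium channel and cycles in mouse heart, had 5.58 CPM in Ino80-high and 86.3 CPM in Ino80-low wells (−3.95). Nampt, the rate-limiting enzyme of NAD salvage, had 12.4 and 91.8 CPM (−2.89). Coq8a, needed for coenzyme Q synthesis, had 98.4 and 525 CPM (−2.42). Dgat2 had 88.8 and 234 CPM (−1.40) and Bdh1 had 13.7 and 31.2 CPM (−1.18), whereas Tspan4 (2.66), Por (1.39) and Leo1 (1.26) were higher. Exons of Bdh1, Tspan4 and Coq8a overlap those of genes on the opposite strand by 13.7%, 13.4% and 6.92% of their bases. The counts of these genes are therefore uncertain without strand. Kcnip2 had 55.7, 20.9 and 53.4 CPM on days 1, 2 and 3, lowest on day 2. Over day 1, Bdh1 was 2-fold higher on day 3 (25.4 against 11.6 CPM, log2 1.13), the called gene among 10 measured, and Kcnip2 was the called gene for day 2 over day 1 (−1.41) and for day 3 over day 2 (1.35). Of all measured genes, 4.83% were higher and 5.74% lower for day 3 over day 1. The shares were 4.44% and 1.81% for day 2 over day 1, and 3.03% and 8.86% for day 3 over day 2.

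Per1 is also a member of a 10-gene list of glucocorticoid-induced genes, of which 9 were measured within day 3. There 6 of 9 were at least 2-fold higher in Ino80-high wells and 0 were lower, beside 23.2% and 11.5% of all measured genes, with a median log2 ratio of 2.00 beside 0.26. Per1 itself, at 2.92, is among those 6, so the count is not independent of the Per1 value given above. Cdkn1a, a cell cycle inhibitor that several stress signals also induce, had 1209 CPM in Ino80-high and 54.6 CPM in Ino80-low wells (4.47). Its exons overlap those of a gene on the opposite strand by 7.68% of their bases, so its counts are uncertain without strand. Map3k6 had 17.9 and 2.35 CPM (2.93), Errfi1 had 40.7 and 6.53 CPM (2.64), and Sgk1, a kinase induced by glucocorticoids and mineralocorticoids, had 69.5 and 17.4 CPM (2.00). Pdk4 had 94.7 and 46.2 CPM (1.04). Tsc22d3, which encodes GILZ and is a widely used glucocorticoid target, had 28.9 and 19.9 CPM (0.54), and Klf9 had 51.6 and 91.5 CPM (−0.83). With median-of-ratios size factors 5 of 9 were higher, without Pdk4 and with Per1 still among them, and 1 was lower, Klf9. Between libraries this list had 0 called genes of 9 for day 2 over day 1 and for day 3 over day 1, and 1 for day 3 over day 2, which was Cdkn1a at 1.10. Of all measured genes, 4.44% were higher and 1.81% lower for day 2 over day 1. The shares were 4.83% and 5.74% for day 3 over day 1, and 3.03% and 8.86% for day 3 over day 2.

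Of 15 immediate early genes and genes known to respond to cell isolation, 4 of 10 measured were higher in Ino80-high wells and 0 lower, beside 23.2% and 11.5% of all measured genes (median 0.55 beside 0.26): Nr4a2 at 4.26, Junb at 2.08, Atf3 at 1.64 and Btg2 at 1.53. Exons of Junb overlap those of a gene on the opposite strand by 7.52% of their bases, so its counts are uncertain without strand. With median-of-ratios size factors 4 of 10 were higher again, whereas Btg2 was no longer called between libraries. Fos had 64.5 CPM in Ino80-high and 64.8 CPM in Ino80-low wells, and Egr1 had 34.1 and 35.1 CPM. Nr4a2 was also the lowest of the list over day 1, at −2.32 on day 2 and −2.72 on day 3. For day 2 over day 1, 1 of 11 was higher (Btg2) and 2 were lower (Nr4a2 and Nr4a3), where 4.44% and 1.81% of all measured genes were. For day 3 over day 1, 0 of 11 were higher and 2 lower (Nr4a2 and Nr4a3), where 4.83% and 5.74% of all measured genes were. For day 3 over day 2, 0 of 10 were higher and 2 lower (Atf3 at −1.27 and Btg2 at −1.19), beside 3.03% and 8.86%.

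**Figure D4:**
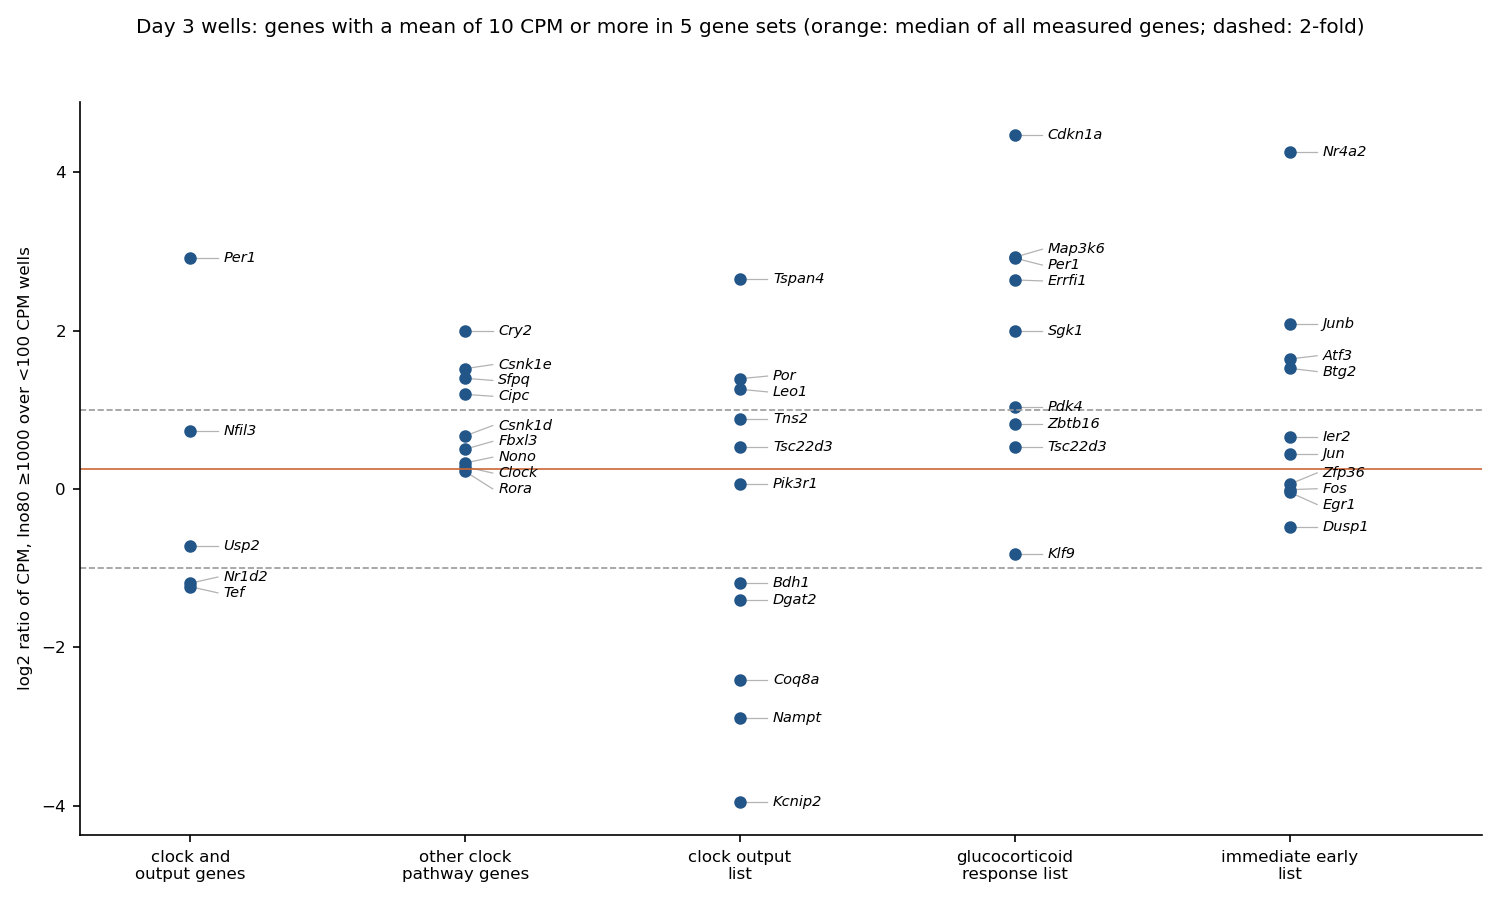
Log2 ratio of CPM for Ino80-high over Ino80-low wells of day 3 (vertical axis), for genes with a mean of 10 CPM or more in the clock set and in 4 gene lists (horizontal axis). Each point is a gene, dashed lines mark 2-fold and the orange line is the median of all measured genes, 0.26. The glucocorticoid list has 6 of 9 points above the upper dashed line, Per1 among them, and the clock output list runs from −3.95 to 2.66.

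Usp2 was also lower on day 3 in the other classes of at least 50 wells, which share the library with the compartment. Free RNA and wells with more than one cell were not measured. Myh6 stood at 9939 to 11337 CPM in macrophage-like wells, between 0.79 and 0.87 of its compartment level, so cardiomyocyte transcripts were abundant in every class. Clock genes are used by nearly every cell type, so no class can serve as one that should lack them. Usp2 had 206.5, 159 and 60.6 CPM in the 97, 81 and 87 macrophage-like wells of days 1, 2 and 3, which is 0.87, 0.75 and 0.89 of its compartment level. In fibroblast-like wells it had 174, 171 and 63.7 CPM, and in the endothelial-like wells of days 1 and 2 it had 144 and 128 CPM. Day 3 over day 1 gave log2 ratios of −1.77 in macrophage-like, −1.45 in fibroblast-like and −1.80 in compartment wells.

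Nfil3 was less even between classes. In fibroblast-like wells it had 48.1, 120 and 38.2 CPM on days 1, 2 and 3, in the order of the compartment. In macrophage-like wells it had 30.9, 75.9 and 68.6 CPM, so that day 3 lay above day 1, and in endothelial-like wells it had 58.3 and 84.9 CPM on days 1 and 2. Nr1d2 had 3.00, 25.6 and 22.2 CPM in macrophage-like wells, where 1 well gave 65.5% of the day 2 counts, and 13.04, 28.2 and 16.5 CPM in fibroblast-like wells. Nr1d1 stood at 2.83 and 3.05 CPM in the fibroblast-like and macrophage-like wells of day 3, against at most 1.12 CPM in these classes on days 1 and 2. Counts per class were small for Nr1d1, between 7 and 90.

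**Figure D5:**
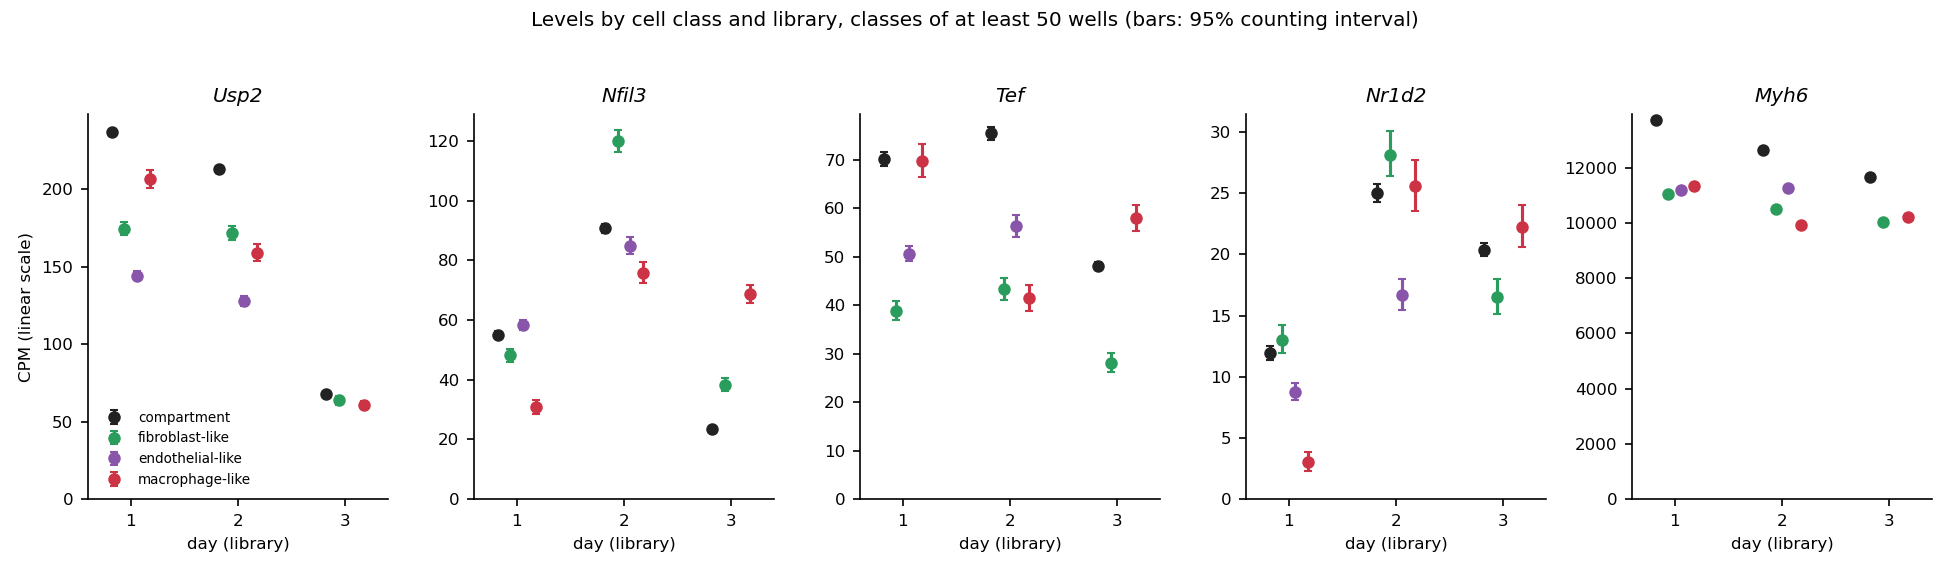
Levels in CPM (vertical axis, linear, own scale per panel) of Usp2, Nfil3, Tef, Nr1d2 and Myh6 on days 1, 2 and 3 (horizontal axis) in the compartment and in the classes with at least 50 wells in that library. Points are sums over wells and bars are 95% counting intervals. Usp2 is at most 67.8 CPM in every class on day 3, while Nfil3 on day 3 is highest in macrophage-like wells at 68.6 CPM, and Myh6 is at least 9939 CPM in every class.

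The genes most like 5 of the members over 12 sums (each class of at least 50 wells in each library, with the day 3 compartment split by Ino80) were ranked by Pearson's r of log2(CPM + 5) among 1821 candidates. These sums share libraries and depth, so r is a description. Among these candidates Tob2 was closest to Usp2 at r = 0.93, with 40.3 CPM in Ino80-high wells, 30.3 CPM in Ino80-low wells, and 117 and 110 CPM on days 1 and 2. Crat, carnitine acetyltransferase, followed at 0.92 and Syngr2 at 0.91. Closest to Nfil3 were Aldh9a1 at 0.86, Copb2 at 0.84 and Eif3a at 0.83. Cryab, a small heat shock protein, was closest to Nr1d1 at 0.94, with 6962 CPM in Ino80-high and 2847 CPM in Ino80-low wells, followed by Mrpl33 and Fam221b, both at 0.92. The nearest to Arntl were Atcayos at 0.93, Romo1 at 0.83 and Uqcc2 at 0.81. Over the 12 sums Nr1d1 lay between 0.311 and 5.60 CPM and Arntl between 1.70 and 14.4 CPM. Both are under the 20 CPM asked of candidates and near the 5 CPM added before the log, which limits what their r values show. For Dbp, which lay between 0.0922 and 2.44 CPM over the 12 sums, no r passed 0.60, that of Dctpp1, and Pccb and Timm44 followed at 0.59 and 0.58. Exons of Cryab, Romo1 and Atcayos overlap those of genes on the opposite strand by 17.0%, 19.8% and 6.17% to 9.87% of their bases, so their counts are uncertain without strand. The same holds for Tob2 and Crat, at 4.34% and up to 7.63%, and Syngr2 shares 7.66% of its exon bases with another gene on its own strand.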

How the data were processed

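Single wells were selected by imaging and amplified on the iCELL8 platform, per the labels' protocols. The tables the authors deposited give unnormalized read counts for each gene in each well. Cutadapt, STAR and featureCounts were used with mm10, per the submitters' processing notes, with versions, annotation, strand setting and any collapsing of duplicates not given in the sources used here. Day 0 was not analysed here. Wells with at least 1000 counts and 300 genes were kept (1225, 1059 and 1092 on days 1, 2 and 3). They were clustered in scanpy 1.11.5 on nuclear-encoded genes (2000 variable genes, values scaled and limited to 10, 30 principal components, 15 neighbours, Leiden resolution 0.5, igraph 0.11.9), and a cluster was named when at least 3 fixed markers were 2-fold up at 20 CPM. Classes rebuilt in this way may differ from the study's, and no doublet caller was run.

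Counts were summed over compartment wells and scaled to 1000000 nuclear-encoded counts (CPM), with 95% exact Poisson intervals for CPM, binomial-split intervals for ratios and Clopper-Pearson intervals for shares (scipy 1.17.1). There is 1 library per day, so no test was made. A gene counts as measured at a mean of 10 CPM and as called at 2-fold. The members, lists and thresholds were chosen with earlier results of these data known. Named genes are the 10 members, called list members, and the 3 genes most like 5 of the members (mean of at least 20 CPM, no well above 25% of a sum). Positions come from GENCODE vM21, and 54349 identifiers matched it with the same version. Ratios and intervals were run on simulated Poisson counts, the model that the intervals assume. Uneven wells and copied reads were not simulated, so this does not show that the intervals hold for these data. One clock pathway gene and one candidate for likeness are not reported here and were left out of the list and of the candidates. The 14 alternatives are in the closing section.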

Additional observations from a re-analysis of the deposited data

Results flagged for a closer look

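Nfil3 differed in direction between classes. For day 3 over day 1 its log2 ratio was 1.15 (95% counting interval 1.02 to 1.28) in macrophage-like wells and −1.23 (−1.27 to −1.18) in the compartment, and the difference between the classes was not tested. The macrophage-like level was 68.6 CPM from 87 wells on day 3 and 30.9 CPM from 97 wells on day 1, and the top well gave 22.3% and 15.2% of these counts. Without the top well of each library the log2 ratio in macrophage-like wells was 1.02.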

How the results depend on the processing

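The count of members at least 2-fold apart was 1 for day 2 over day 1, 2 for day 3 over day 1, 2 for day 3 over day 2 and 3 for Ino80-high over Ino80-low wells, and that of all measured genes was 401, 650, 749 and 2073. For day 2 over day 1 the members' count was 0 with median-of-ratios size factors, with the mean of per-well CPM, with thinned wells and with 1000 variable genes, and 3 in wells with 25 to 35% mitochondrial counts. For day 3 over day 1 it was 1 with all kept wells, and for day 3 over day 2 it was 1 in wells with 25 to 35% mitochondrial counts, where Usp2 stood at −0.69. With no minimum CPM the members' counts were 4, 4 and 7 for day 3 over day 1, day 3 over day 2 and the Ino80 comparison, since more genes are counted, and those of all genes were 14183, 16348, 14562 and 17835 over the 4 comparisons. With mitochondrial counts in the total, all genes gave 250 for day 2 over day 1 and 440 for day 3 over day 2. In wells with 25 to 35% mitochondrial counts, which leave 85, 130 and 136 wells on days 1, 2 and 3, all genes gave 1328, 1613 and 1338 over the 3 day comparisons. There Dbp turned to 0.25 for day 3 over day 1 (−1.03 in all compartment wells) and Tef to 0.0211 for Ino80-high over Ino80-low wells (−1.23, from 43 and 82 wells); the cause was not tested. Between days, 12 of 30 members' values had the other sign in these wells, 10 passed 2-fold that had not and 2 no longer did. The share of all genes that did so was not counted, and the 30 values include members under 10 CPM. Nothing about the clock genes as a set is read from these counts. The values that turned or passed 2-fold include Per1 at −1.44 for day 2 over day 1 and Tef at 0.49 and 0.85 for day 3 over days 1 and 2. They also include Per2 at 1.58, Nr1d2 at 1.80 and Arntl at −1.80 for day 3 over day 1, and Per3 at 1.54 for day 3 over day 2.

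Of the members' values under the alternatives, 281 stayed within the counting error of the value reported and 217 moved beyond it. The other 2, of at least 2-fold, turned: those of Dbp and Tef given above, where Dbp lies under 10 CPM and so was not called. Usp2 stayed between −1.83 and −1.43 for day 3 over day 1, Nr1d1 between 1.27 and 2.33, and for the Ino80 comparison Per1 stayed between 1.64 and 3.08, Per2 between 2.87 and 4.61 and Arntl between 1.32 and 2.15. The alternative that keeps the leading clusters alone was chosen after seeing the data. No paired analysis was possible because each day has 1 library. Single wells weigh most for Dbp and Per3, where the top well gave up to 62.4% and 52.1% of the counts of a library or of the Ino80-high or Ino80-low wells, which limits what their ratios show.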
